A study of Mus musculus with 42 samples.

Results

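At day 6.5 of mouse development the embryo proper is wrapped in visceral endoderm and capped by extraembryonic ectoderm. RNA of these 2 extraembryonic tissues, both taken at E6.5, was compared here gene by gene, with visceral endoderm (VE) set over extraembryonic ectoderm (ExE). The visceral endoderm group held 3 samples and the extraembryonic ectoderm group 2 samples. Both came from female wild type embryos with a C57BL/6N mother and a PWK/PhJ father, and no sample of either group carried a deletion or received a treatment according to the labels. They are 5 of the 42 Smart-seq2 samples of a study of paternal X silencing. Levels were deposited as FPKM, fragments per kilobase of transcript normalized for library depth, with 1 column for the maternal and 1 for the paternal allele of each tissue. Each column pools the samples of its tissue. The labels do not say whether the samples of a tissue were separate embryos or pools of embryos. The cross was made in 1 direction only, so effects of strain and of parental origin cannot be told apart.

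A gene entered the comparison when its total, maternal plus paternal, was at least 5 FPKM in 1 of the 2 tissues and above 0 in both. That left 6570 of the 24083 genes in the table. Another 7244 genes were above 0 in both tissues but below that minimum, 7956 were listed at 0 in both, and 2116 were at 0 in 1 tissue and below 5 FPKM in the other. Of the rest, 193 had at least 5 FPKM in extraembryonic ectoderm and a listed 0 in visceral endoderm, and 4 were the other way round. The 193 included 15 ribosomal protein genes, and 190 of them were at 0 in the E6.5 epiblast sample as well. Among the highest were the cyclophilin A gene Ppia (3382 FPKM), Rps23 (1615), Rps27a, Rpl18 and Rpl8. These are genes that every cell uses, so a listed 0 is not read as absence of the RNA, and no ratio was formed against it. The 4 genes listed at 0 in extraembryonic ectoderm were Vps26a (52.5 FPKM in visceral endoderm), Rce1 (21.5), Zfp422 (7.01) and Tox3 (5.61). At the lower limit of 5 FPKM, Sepsecs and Pgam2 lay just inside and Cep68 and Pdcd7 just outside.

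Visceral endoderm is an absorptive epithelium. It takes up maternal proteins through endocytic receptors, secretes lipoproteins and serum proteins as liver does later, and at its anterior side secretes inhibitors that pattern the epiblast. Extraembryonic ectoderm descends from the trophectoderm, holds trophoblast stem cells kept by FGF signalling, and sends BMP signals to the epiblast. In both tissues of the mouse it is the paternal X chromosome that is silenced, by imprinted X inactivation.

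The columns pool samples, so no spread between samples and no test was available. A gene is called higher or lower in visceral endoderm here by a fixed rule of size: a log2 ratio of at least 1 or at most -1, on FPKM plus 1, which understates the ratio of low genes. A gene with 5 FPKM or more in only 1 of the tissues could not be called lower there. Counts that go 1 way in a gene list therefore lean in part on the minimum. Read depth was unknown, since no counts were given. In bulk tissue, fewer cells of a type and less RNA per cell cannot be told apart. By this rule 657 genes were higher in visceral endoderm (10% of those compared) and 1609 were lower (24.5%), together 34.5%. The median log2 ratio of all 6570 genes was -0.46, with quartiles of -0.99 and 0.22. The visceral endoderm totals added up to 334639 FPKM and the extraembryonic ectoderm totals to 446925 FPKM. The 50 most abundant genes took 30.5% of the sum in visceral endoderm and 21.4% in extraembryonic ectoderm, and the ribosomal RNA precursor gene Rn45s alone took 8.33% in VE and 2.61% in ExE. After each ratio was centred on the median of all genes, 1110 were higher (16.9%) and 675 lower (10.3%), so the split by direction depended on the scaling. For the gene lists, counts of higher and lower genes after centring are given below wherever they differ. Each list count is to be read beside the shares over all compared genes, 10% higher and 24.5% lower on the deposited scale. Counts by size of the ratio and by allele are on the deposited scale.

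The ratios reached further on the low side. At least 3 log2 units separated the tissues in 47 genes higher in visceral endoderm and in 110 lower ones, and at least 4 log2 units in 1 higher and 46 lower genes. The highest ratio was that of Apoc2, at 4.15. Around the 2-fold limit, Slc31a2 lay just inside and Btg2 and Rcn3 just outside on the high side, and Mrpl45 and Slc7a5 just inside and Lmf2 and Slmo2 just outside on the low side. Both alleles, taken separately, passed 2-fold in the same direction in 452 of the 657 higher genes (68.8%) and 1130 of the 1609 lower genes (70.2%). In 29 higher and 9 lower genes 1 allele had the opposite sign.

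**Figure D1:**
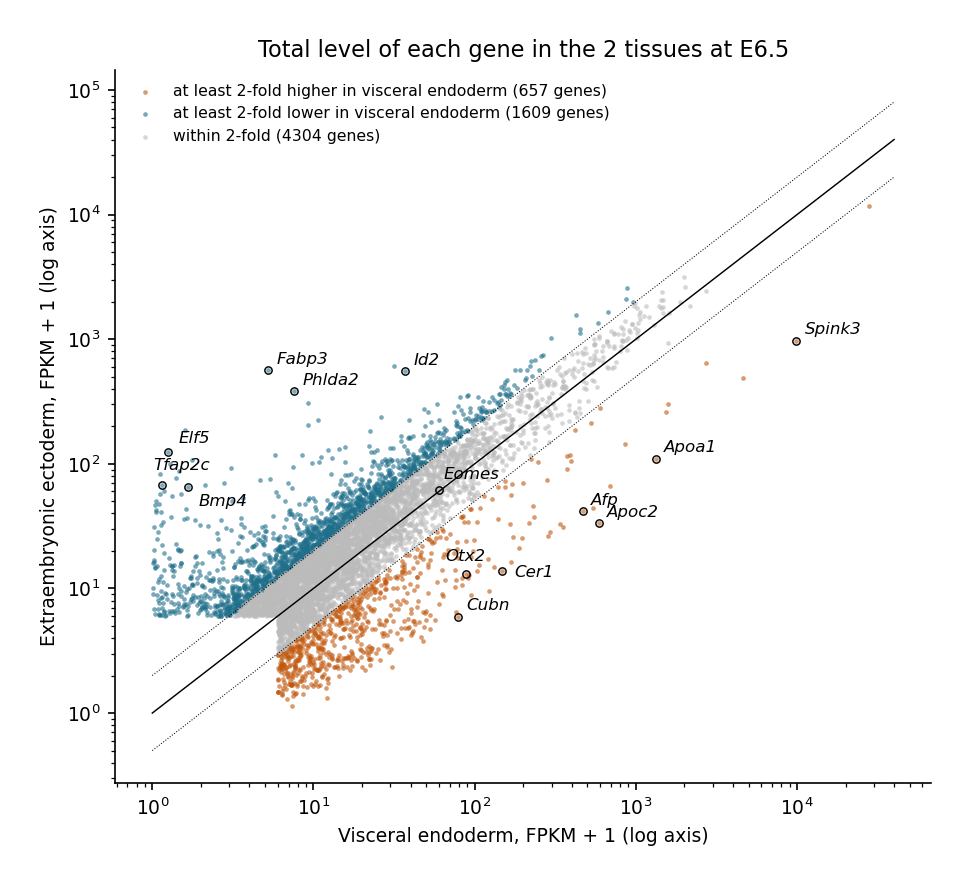
Total level (maternal plus paternal FPKM, plus 1, log axes) of each of the 6570 compared genes in visceral endoderm (horizontal) and extraembryonic ectoderm (vertical); the solid line marks equal levels and the dotted lines 2-fold. Points lower in visceral endoderm (1609) spread down to its axis, while points higher there (657) keep a measurable level in extraembryonic ectoderm.

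The 12 highest ratios included those of 4 apolipoprotein genes. Apoc2, whose product activates lipoprotein lipase, had 293 FPKM from the maternal and 296 from the paternal allele in visceral endoderm, against 15.6 and 16.7 in extraembryonic ectoderm. Cubn, the intrinsic factor and albumin receptor cubilin, had 38.7 FPKM from each allele in visceral endoderm, against 2.50 and 2.44 in extraembryonic ectoderm (3.73). In both genes each visceral endoderm allele lay above the extraembryonic ectoderm total. They were followed by the carbonic anhydrase gene Car7 (3.71), Apoa4 (3.68), the sulfate transporter gene Slc13a4 (3.67), Apom (3.61), Apoa1 (3.59), the sialic acid lyase gene Npl (3.56), the sterol acyltransferase gene Soat2 (3.51), the glypican gene Gpc3 (3.51), the fetal serum protein gene Afp (3.495) and the galectin gene Lgals2 (3.47).

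The 12 lowest ratios included those of junction genes and trophoblast transcription factor genes. Elf5, a transcription factor of trophoblast stem cells, had 0.0577 FPKM from the maternal and 0.202 from the paternal allele in visceral endoderm, against 17.8 and 107 in extraembryonic ectoderm (-6.64). Each extraembryonic ectoderm allele of Elf5 was far above the visceral endoderm total, although the 2 alleles differed from each other. Fabp3, a fatty acid binding protein gene, had 4.21 FPKM in visceral endoderm, against 561 in extraembryonic ectoderm (-6.75). Also among the lowest 12 were the connexin gene Gjb5 (-6.29), AU018091 (-6.23), the secreted protease gene Htra1 (-5.93), Dppa4 (-5.90), the AP-2 factor gene Tfap2c (-5.88), the claudin genes Cldn3 (-5.78) and Cldn4 (-5.69), the calcium-binding protein gene S100a6 (-5.68) and the imprinted gene Phlda2 (-5.67).

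Promoter windows were searched for motifs in the groups of genes called higher and lower in visceral endoderm. These groups were set by the direction of the ratio, so sharing a direction is no finding. The RefSeq window (build GRCm38.p6), 250 bases before to 50 after the gene's start, was at hand for 5331 of the compared genes, and the first window listed for a gene was used. The windows shown are those of the gene with the highest ratio, of a marker gene of visceral endoderm, and of a marker gene of extraembryonic ectoderm. Capitals mark GTTAAT, part of the binding site of HNF1 factors, in Apoc2 (minus strand, chr7:19677892-19678191, match starting at -89) and in Afp (plus strand, chr5:90490464-90490763, match starting at -105). In Elf5 (plus strand, chr2:103411848-103412147) they mark GGAATG, a TEAD motif, read on the other strand and starting at -173. HNF1 factors act in visceral endoderm and TEAD4 in trophoblast.
Apoc2: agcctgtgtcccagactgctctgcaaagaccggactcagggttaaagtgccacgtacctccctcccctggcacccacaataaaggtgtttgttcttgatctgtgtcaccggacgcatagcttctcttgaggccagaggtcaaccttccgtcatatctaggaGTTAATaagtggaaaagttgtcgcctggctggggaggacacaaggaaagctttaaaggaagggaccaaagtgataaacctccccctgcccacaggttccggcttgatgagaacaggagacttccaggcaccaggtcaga
Afp: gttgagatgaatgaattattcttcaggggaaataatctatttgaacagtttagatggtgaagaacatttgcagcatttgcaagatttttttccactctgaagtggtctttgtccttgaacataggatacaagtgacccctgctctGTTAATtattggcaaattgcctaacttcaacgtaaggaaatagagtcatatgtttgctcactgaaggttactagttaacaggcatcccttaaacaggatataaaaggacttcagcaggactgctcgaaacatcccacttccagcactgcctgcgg
Elf5: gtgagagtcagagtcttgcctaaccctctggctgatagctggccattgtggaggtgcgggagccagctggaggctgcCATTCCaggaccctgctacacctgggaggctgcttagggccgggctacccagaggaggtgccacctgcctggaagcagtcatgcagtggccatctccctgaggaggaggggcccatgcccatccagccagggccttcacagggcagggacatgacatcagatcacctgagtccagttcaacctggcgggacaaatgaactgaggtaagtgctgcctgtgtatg

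Across windows, with both strands searched, each motif was found in both groups. GTTAAT was in 5.59% of the windows of genes higher in visceral endoderm, 3.92% of those lower, 4.22% of all compared genes and 7.20% of all 27025 RefSeq windows. GGAATG was in 15.2% of the windows of higher and 9.31% of those of lower genes. Its shares were 11.05% for all compared genes and 14.6% for all windows. The GATA motif AGATAA was in 5.39% of the higher and 5.62% of the lower genes' windows (5.78% of all compared genes, 11.4% of all windows). The AP-2 motif GCCNNNGGC was in 29.3% of the higher and 23.8% of the lower (25.15% of all compared genes, 16.5% of all windows). The HNF4 motif CAAAGTCCA was in 0.599% of the higher and 0.308% of the lower (0.281% of all compared genes, 0.477% of all windows). Among the 50 windows with the highest ratios GTTAAT was in 5, against 0 of the 50 with the lowest. AGATAA was in 6 of the highest, against 1 of the lowest, GGAATG in 9, against 6, GCCNNNGGC in 12, against 14, and CAAAGTCCA in 0 of either.

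Of 15 compared genes for apolipoproteins and lipid carriers, 12 were higher in visceral endoderm and 2 lower, with a list median of 3.33. Apoe and Apoa1 were the most abundant, with 1578 and 1324 FPKM in visceral endoderm, against 302 and 109 in extraembryonic ectoderm. The thyroxine carrier gene Ttr had 693 FPKM in visceral endoderm, against 65.4 in extraembryonic ectoderm (3.39). The lower members were Fabp3 and Dgat2, a gene of triglyceride synthesis (13.6 FPKM in visceral endoderm and 53.3 in extraembryonic ectoderm). Apoc1 was level, with 99.8 FPKM in VE and 109 in ExE. Fabp1 and Fabp2, fatty acid binding protein genes of liver and gut, stayed under 5 FPKM in both.

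Serum protein genes were represented by 9 of a list of 24, and all 9 were higher in visceral endoderm (median 3.07). All but Afp and Spink3 met the 5 FPKM minimum only through visceral endoderm. Those genes could not have been called lower, so the count and median follow in part from the filter. The trypsin inhibitor gene Spink3 had 9863 FPKM in visceral endoderm and 971 in extraembryonic ectoderm (3.34). It was the most abundant protein-coding gene of visceral endoderm. Afp had 467 FPKM in VE and 40.5 in ExE, the fibrinogen gene Fgb 39.4 in VE and 3.24 in ExE (3.25), and Spp2 28.3 in VE and 2.11 in ExE (3.23). The transferrin gene Trf had 27.6 FPKM in visceral endoderm, against 2.41 in extraembryonic ectoderm (3.07). The 15 others did not meet the minimum, among them the albumin gene Alb at 0.0674 FPKM in visceral endoderm.

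Of 15 endocytic uptake genes, 7 were higher in visceral endoderm and 1 was lower (median 0.48). The higher ones were the cubilin complex genes Cubn and Amn (131 FPKM in visceral endoderm, against 13.8 in extraembryonic ectoderm), the megalin gene Lrp2 (9.996 in VE and 0.689 in ExE), the adaptor gene Dab2 (283 in VE and 25.3 in ExE), the megalin chaperone gene Lrpap1 (96.3 in VE and 19.05 in ExE), the motor gene Myo6 (26.3 in VE and 2.49 in ExE) and the endosomal chloride channel gene Clcn5 (20.7 in VE and 4.35 in ExE). General parts of the machinery, such as Rab5a, Rab11a and the AP-2 adaptor subunit genes, were within 2-fold.

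Of 16 endoderm transcription factor genes, 15 were higher in visceral endoderm (median 2.69). Foxa2 had 58.7 FPKM in visceral endoderm and 6.47 in extraembryonic ectoderm (2.999), and Hnf4a had 20.7 in VE and 1.94 in ExE (2.88). Gata4 had 35.3 FPKM in VE and 4.53 in ExE and Sox17 21.2 in VE and 2.08 in ExE. The coactivator gene Cited1 was the most abundant of them, with 199 FPKM in visceral endoderm and 69.2 in extraembryonic ectoderm (1.51). Klf6 was within 2-fold.

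All 12 genes known from the anterior visceral endoderm were higher (median 2.87). Hhex, Lhx1, Otx2 and Gsc of this list are also counted among the endoderm transcription factor genes, so the lists are not separate results. The secreted inhibitor genes Cer1 and Lefty1 had 147 and 102.4 FPKM in visceral endoderm, against 12.9 and 12.7 in extraembryonic ectoderm. The Wnt inhibitor gene Dkk1 had 61.7 FPKM in VE and 7.98 in ExE, and the homeobox gene Otx2 87.5 in VE and 12.1 in ExE. Otx2 was at 106 FPKM in the epiblast sample, so it does not mark visceral endoderm alone. The anterior and the other visceral endoderm cells were not separated in these samples.

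Apical and basal surface genes were also more often on the high side. Of 8 microvillus genes, 5 were higher (median 2.05; 7 after centring), led by the peptidase gene Dpp4 (19.9 FPKM in visceral endoderm and 1.20 in extraembryonic ectoderm), Muc13 and the villin gene Vil1 (27.5 in VE and 2.53 in ExE). The ezrin gene Ezr was within 2-fold, at 99.4 FPKM in VE and 133 in ExE. Of 11 basement membrane genes, 10 were higher (median 1.97). The collagen IV genes Col4a1 (41.1 FPKM in VE and 4.44 in ExE) and Col4a2 (22.0 in VE and 2.35 in ExE) and the collagen chaperone gene Serpinh1 (34.0 in VE and 3.77 in ExE) had the largest ratios, and Nid1 was within 2-fold. Of 20 lysosomal genes, 7 were higher and 2 lower (median 0.90; 11 and 1 after centring). The cathepsin genes Ctsh (188 FPKM in visceral endoderm and 20.03 in extraembryonic ectoderm) and Ctsc (194 in VE and 24.5 in ExE) led, with the protease gene Lgmn (281 in VE and 73.4 in ExE). The membrane protein gene Scarb2 was lower, at 0.172 FPKM in visceral endoderm, against 6.64 in extraembryonic ectoderm.

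Trophoblast transcription factor genes stood at the other end. Of 16, 15 were lower in visceral endoderm (median -2.97). Besides Elf5, Tfap2c had 0.146 FPKM in visceral endoderm and 66.6 in extraembryonic ectoderm, Hand1 0.0466 in VE and 45.5 in ExE, and Gata3 0.183 in VE and 18.2 in ExE. Id2, an inhibitor of bHLH factors, was the most abundant of them, with 36.1 FPKM in visceral endoderm, against 553 in extraembryonic ectoderm (-3.90). The exception was the T-box factor gene Eomes. It had 30.0 FPKM from the maternal and 29.2 from the paternal allele in visceral endoderm, against 30.2 and 30.8 in extraembryonic ectoderm. Its 4 values lay within 2 FPKM of each other, so Eomes did not mark extraembryonic ectoderm against visceral endoderm at this stage.

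Signalling genes of extraembryonic ectoderm were lower in 10 of 13 cases (median -2.51). Bmp4, the ligand that induces germ cells and posterior mesoderm in the epiblast, had 0.672 FPKM in visceral endoderm and 64.0 in extraembryonic ectoderm (-5.28). Bmp8b had 0.133 FPKM in VE and 40.4 in ExE, Wnt7b 0.0549 in VE and 49.1 in ExE (-5.57) and Wnt6 0.0270 in VE and 19.4 in ExE. The FGF receptor gene Fgfr2, through which FGF4 reaches trophoblast, had 2.40 FPKM in visceral endoderm and 15.5 in extraembryonic ectoderm, and the ERK phosphatase gene Dusp6 13.8 in VE and 73.7 in ExE. The higher gene was Nodal, a TGF-beta ligand, with 39.4 FPKM in visceral endoderm and 5.79 in extraembryonic ectoderm (2.57). Etv5 and Spry4, which respond to FGF signalling, were within 2-fold, and Spry4 was higher after centring (1.11), which made 2 higher genes.

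**Figure D2:**
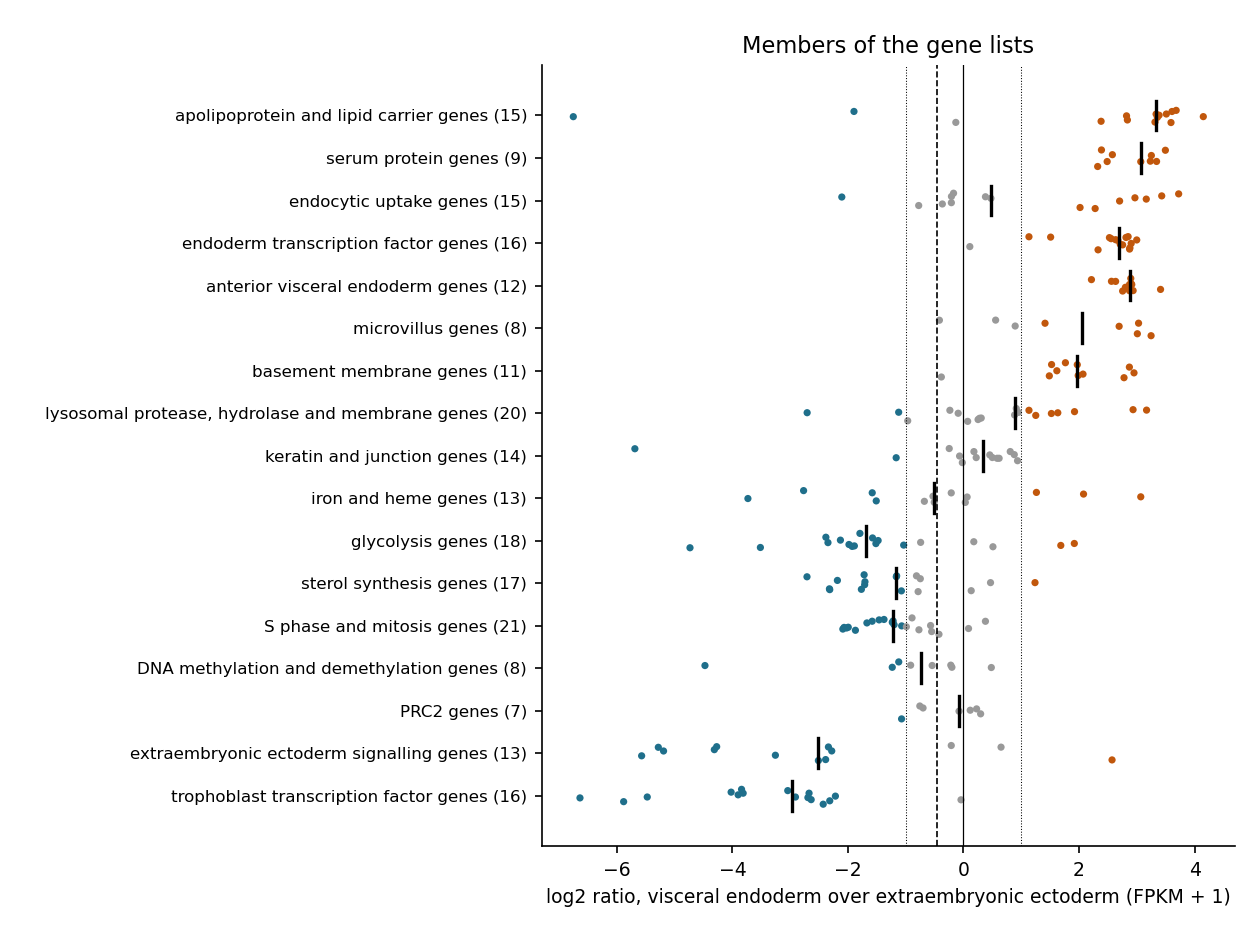
Log2 ratio (visceral endoderm over extraembryonic ectoderm, FPKM plus 1) of each compared gene in 17 lists, with the number of genes in brackets; black bars mark list medians, dotted lines 2-fold and the dashed line the median of all compared genes (-0.46). The medians of the lipid, serum protein, endoderm transcription factor, anterior visceral endoderm, microvillus and basement membrane lists lie right of 2-fold, and those of the glycolysis, sterol, cell cycle and both extraembryonic ectoderm lists lie left of it. Some genes stand in more than 1 list.

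Epithelial genes that both tissues use were close. Of 14 keratin and junction genes, 0 were higher in visceral endoderm and 2 were lower (median 0.34), and 5 and 1 after centring. Cldn6 was the most abundant, with 384 FPKM in visceral endoderm and 271 in extraembryonic ectoderm, and Krt8 and Krt18 had 287 and 316 FPKM in VE, against 149 and 279 in ExE. The E-cadherin gene Cdh1 was lower, with 30.9 FPKM in visceral endoderm and 70.5 in extraembryonic ectoderm (-1.16, within 2-fold after centring). Cldn4 was the other lower gene, at 0.112 FPKM in VE and 56.3 in ExE.

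Of 18 glycolysis genes, 13 were lower in visceral endoderm (12 after centring) and 2 were higher, with a list median of -1.68. Of the 14 enzyme genes 11 were lower and 3 within 2-fold, and the 4 transporter genes divided evenly. The glucose transporter gene Slc2a3 had 397 FPKM in visceral endoderm and 104 in extraembryonic ectoderm (1.92), and the lactate transporter gene Slc16a1 had 372 in VE and 115 in ExE (1.69). A second glucose transporter gene, Slc2a1, went the other way, with 88.1 FPKM in visceral endoderm, against 351 in extraembryonic ectoderm (-1.98), and so did the lactate transporter gene Slc16a3, with 9.26 FPKM in VE and 43.9 in ExE (-2.13). The phosphofructokinase gene Pfkp had 0.628 FPKM in VE and 42.3 in ExE (-4.73) and the hexokinase gene Hk1 0.361 in VE and 14.6 in ExE (-3.51), while Hk2 was level at 12.7 in VE and 11.1 in ExE. Eno1 had 423 FPKM in visceral endoderm and 1569.8 in extraembryonic ectoderm, and Ldha 962 in VE and 1972 in ExE.

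Sterol synthesis genes were also more often lower. Of 17, 11 were lower and 1 higher (median -1.16), with 8 lower and a median of -0.70 after centring. The sterol sensor gene Insig1 had 1.74 FPKM in visceral endoderm, against 16.9 in extraembryonic ectoderm, the mevalonate pathway gene Mvd 6.94 in VE and 38.6 in ExE, and the squalene epoxidase gene Sqle 4.63 in VE and 26.99 in ExE. The X-linked sterol isomerase gene Ebp was the higher one, at 45.1 FPKM in VE and 18.6 in ExE.

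Iron genes went both ways, with 3 of 13 higher and 4 lower, against 10% higher and 24.5% lower over all compared genes. The list median was -0.51 on the deposited scale, -0.04 after centring and 0.03 after rescaling without the 50 most abundant genes, so it had no stable sign. The higher genes were Trf, the ferritin gene Fth1 (2722 FPKM in visceral endoderm and 643 in extraembryonic ectoderm) and the iron exporter gene Slc40a1 (41.9 in VE and 16.9 in ExE). The lower genes were the transferrin receptor gene Tfrc (4.60 in VE and 37.1 in ExE), the heme and folate carrier gene Slc46a1 (1.66 in VE and 34.3 in ExE), Hmox1 (18.7 in VE and 57.9 in ExE) and Alad (5.68 in VE and 18.02 in ExE).

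Of 21 S phase and mitosis genes, 13 were lower in visceral endoderm (median -1.22) and 7 after centring, and 0 were higher. The ribonucleotide reductase gene Rrm2 had 79.7 FPKM in visceral endoderm and 342 in extraembryonic ectoderm (-2.09), and the helicase subunit genes Mcm6 and Mcm2 37.8 and 26.7 FPKM in VE, against 162 and 109 in ExE. Ccne1, the G1 to S cyclin gene, had 39.0 FPKM in VE and 161 in ExE (-2.02). The mitotic marker gene Mki67 was level, at 15.3 in VE and 14.4 in ExE.

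Of 8 DNA methylation genes, 3 were lower (1 after centring). Over all compared genes 24.5% were lower (10.3% after centring), so these small counts do not set the list apart. Dnmt3l, a cofactor of the DNA methyltransferases, had 0.649 FPKM in visceral endoderm and 35.6 in extraembryonic ectoderm (-4.47). Dnmt3b had 80.9 FPKM in VE and 191 in ExE and Uhrf1 28.9 in VE and 64.0 in ExE, both within 2-fold after centring. Of 7 genes of PRC2, the complex that methylates lysine 27 of histone H3, only Jarid2 passed 2-fold (9.08 FPKM in VE and 20.2 in ExE, -1.07). None of them did after centring, where the list median was 0.39 and not -0.08. Ezh2 had 45.5 FPKM in VE and 36.8 in ExE and Eed 28.6 in VE and 47.0 in ExE.

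Among abundant genes nearly absent from the epiblast sample, ratios were mostly close to each other on the visceral endoderm side and spread on the other. Of the genes higher in visceral endoderm, 71 had at least 20 FPKM there and less than 1 FPKM in the epiblast sample, a subset set up after the values were seen. In extraembryonic ectoderm these 71 genes stood at a median of 9.93% of their visceral endoderm level, with quartiles of 8.45% and 12.02%, and 52 of them lay between 7% and 13%. Only Car7 (4.52%) was below 5%. The 71 genes included Cubn (6.37%), Afp (8.67%), Cer1 (8.78%) and Foxa2 (11.02%). Of the 71, the farthest from the range of 7% to 13% were Cyp26a1, an enzyme gene that degrades retinoic acid (44.0%), Rn45s (41.8%), Mixl1 (40.1%) and Zdhhc9 (37.6%).

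In the other direction, 26 genes had at least 20 FPKM in extraembryonic ectoderm and less than 1 in the epiblast. Their visceral endoderm level was a median of 0.973% of the extraembryonic ectoderm level, with quartiles of 0.289% and 20.1%, and 14 were below 5%. Wnt7b stood at 0.112%, Elf5 at 0.209% and Bmp4 at 1.05%. The 12 others ranged up to 40.2% in Rnaset2b. Within these subsets, most genes higher in visceral endoderm had a similar trace in extraembryonic ectoderm. Of the 26 genes higher in extraembryonic ectoderm, 14 had almost none in visceral endoderm. Whether visceral endoderm cells or their RNA were present in the extraembryonic ectoderm samples was not tested, and ratios near 3 log2 units in visceral endoderm genes stand beside this trace.

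**Figure D3:**
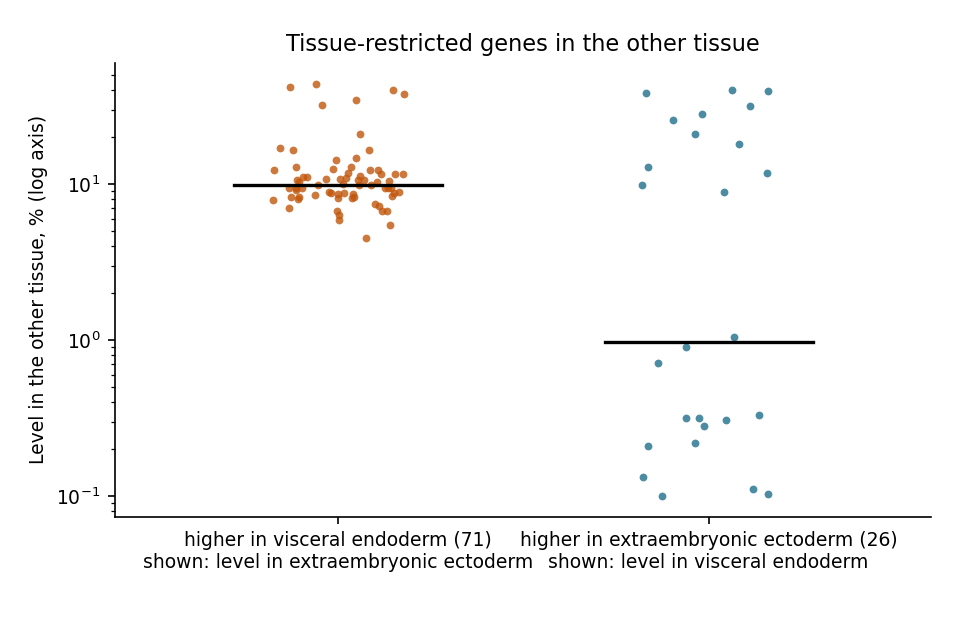
Level in the other tissue, as a percentage of the level in the tissue where the gene is higher (log axis), for genes with at least 20 FPKM in the higher tissue and less than 1 FPKM in epiblast; each point is a gene and bars are medians. The 71 visceral endoderm genes gather at a median of 9.93%, and the 26 extraembryonic ectoderm genes spread from 0.1001% to 40.2%.

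Markers of other cell types were listed as well. Of 10 compared epiblast markers, 8 were lower in visceral endoderm (7 after centring) and 2, Fgf5 and Otx2, were higher. The 12 epiblast markers added up to 319 FPKM in visceral endoderm, 589 in extraembryonic ectoderm and 1540 in the epiblast sample. Utf1 had 47.2 FPKM in visceral endoderm and 276 in extraembryonic ectoderm. Pou5f1 had 0.334 FPKM in VE and 14.04 in ExE, with 79.4 in epiblast. Its level in extraembryonic ectoderm was listed as all maternal, which is not read as absence of paternal RNA. Slc7a3 had 0.189 FPKM in VE and 3.41 in ExE, against 209 in epiblast. The part of epiblast RNA in the lower ratios of these genes was not tested.

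Primitive streak genes were mixed. Fgf8 (73.1 FPKM in visceral endoderm and 18.2 in extraembryonic ectoderm), Mixl1 (107 in VE and 43.002 in ExE) and Wnt3 (6.46 in VE and 1.90 in ExE) were higher, and T, the brachyury gene, was lower (0.772 in VE and 9.86 in ExE). Mesp1 and Tbx6 were listed at 0 in both, and the 10 markers added up to 192 FPKM in visceral endoderm and 77.2 in extraembryonic ectoderm. Of 8 compared parietal endoderm markers, 4 were higher, all of them matrix genes (Col4a1, Col4a2, Lamb1 and Sparc), and Snai1 and Fst were lower. Thbd was at 0.0207 FPKM in VE and 0.0941 in ExE, and the sums were 211 in VE and 91.6 in ExE. Of 11 decidua markers only Bmp2 was compared (16.0 FPKM in VE and 1.66 in ExE). The 11 added up to 19.4 FPKM in VE and 2.66 in ExE, with Hoxa10 at 3.16 in VE and 0.202 in ExE. Col3a1, Hand2 and Prl8a2 were at 0 in both tissues. Blood and endothelium markers added up to 7.76 FPKM in VE and 11.5 in ExE, of which Gata1 made 5.16 in VE and 10.9 in ExE; Hba-x, Ptprc and Cdh5 were at 0 in both. Of 17 markers of the ectoplacental cone and giant cells, 4 were compared. Peg10 was higher, Ascl2 and Hand1 were lower and Plac1 was within 2-fold, while Tpbpa and Prl3d1 were at 0 in both.

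By chromosome, the X stood apart on the high side. Of 244 X-linked genes, 51 were higher in visceral endoderm (20.9%), against 605 of 6311 autosomal genes (9.59%), and the autosomes taken singly ranged from 6.73% to 14.9%. Lower genes were 54 of the X-linked (22.1%) and 1552 of the autosomal ones (24.6%). After centring, 27% of X-linked and 16.5% of autosomal genes were on the high side, and 16% of X-linked and 10.1% of autosomal genes on the low side. On the maternal allele alone, 54 X-linked genes (22.1%) and 539 autosomal genes (8.54%) were higher, and 52 (21.3%) and 1375 (21.8%) were lower. The median log2 ratio of X-linked genes was -0.19 in total, -0.13 from the maternal and -0.55 from the paternal allele. For autosomal genes the 3 medians were -0.47, -0.44 and -0.44. No test of this difference was available.

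The X-linked genes with the highest ratios came almost wholly from the maternal allele. Gpc3 had 337 FPKM from the maternal and 18.1 from the paternal allele in visceral endoderm, against 28.2 and 1.99 in extraembryonic ectoderm. Amot, the gene of a Hippo pathway regulator, had 334 and 4.22 FPKM in VE, against 30.8 and 1.21 in ExE (3.36). The kinase gene Nrk (3.21), the calcium-binding protein gene S100g (3.18), Irs4 (3.04), Dgkk (3.004), Mum1l1 (2.96) and the claudin gene Cldn2 (2.92) followed. All 8 stood in extraembryonic ectoderm at 7% to 13% of their visceral endoderm level. That percentage is the inverse of the ratio they were picked by, so it is no separate result. The X-linked genes with the lowest ratios were the nuclear receptor gene Nr0b1 (0.0500 FPKM in visceral endoderm and 41.9 in extraembryonic ectoderm, -5.35), Nup62cl (8.29 in VE and 305 in ExE, -5.04), the nucleotide synthesis gene Prps1 (1.12 in VE and 66.3 in ExE, -4.99), Gm9, Ldoc1, Fndc3c1, Dcaf12l1 and the homeobox gene Rhox4e.

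**Figure D4:**
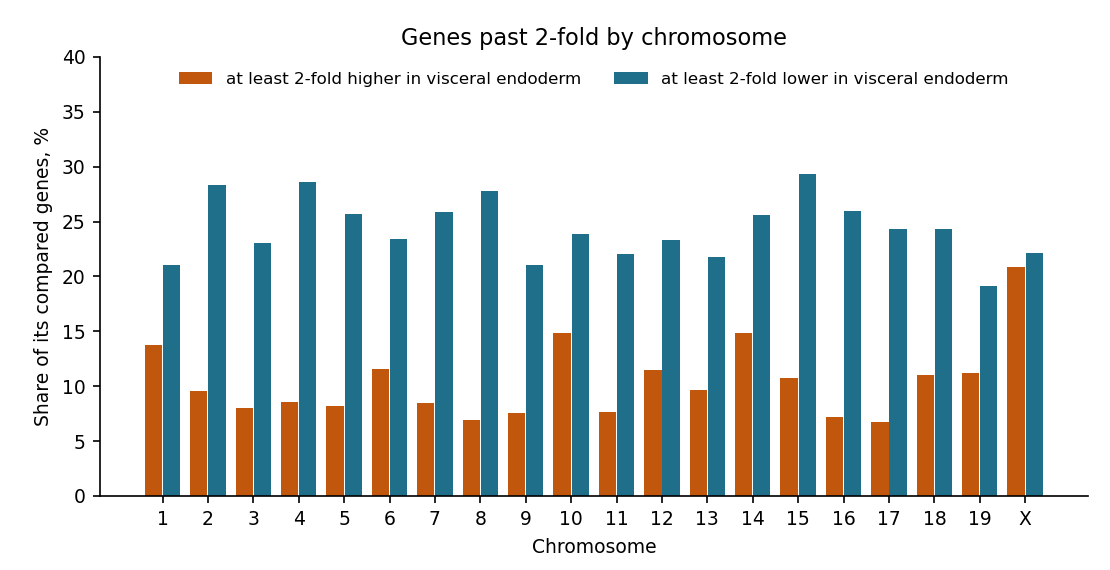
Share of the compared genes of each chromosome (percent) that were at least 2-fold higher (orange) or lower (blue) in visceral endoderm, on the deposited scale. The X has the tallest orange bar (20.9%), and its blue bar (22.1%) is within the range of the autosomes.

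The paternal share, paternal FPKM over the sum of both alleles, was lower in visceral endoderm for most X-linked genes. It was computed for 228 genes with at least 1 FPKM in both tissues. Its median was 0.808% in visceral endoderm (quartiles 0.196% and 2.34%) and 5.68% in extraembryonic ectoderm (2.59% and 10.997%). Gene by gene, 197 were lower in visceral endoderm, 24 higher and 7 equal, with a median difference of -3.68 points. The paternal allele was listed at 0 for 38 genes in visceral endoderm and 9 in extraembryonic ectoderm. A share of at least 10% was reached by 25 genes in visceral endoderm and 64 in extraembryonic ectoderm, 19 of them in both.

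Autosomal genes gave the background. Over 6125 of them the median share was 49.0% in both tissues and the median difference was -0.03 points. By at least 10 points, 41 X-linked genes (18%) were lower in visceral endoderm, against 312 autosomal genes (5.09%), and 3 X-linked (1.32%) and 335 autosomal genes (5.47%) were higher. The difference had the same sign in each class of the total. Among X-linked genes higher in visceral endoderm the median difference was -2.07 points (48 genes), among those within 2-fold -3.91 (139) and among those lower -4.25 (41). As sums, X-linked genes had 12475 maternal and 526 paternal FPKM in visceral endoderm (4.04%) and 15079 and 2076 in extraembryonic ectoderm (12.1%).

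Where both tissues had a total of 5 FPKM or more, the largest differences were found in genes whose paternal share in visceral endoderm ranged from a listed 0 to 20.2%. Below that total, Cxx1c differed more, with 0.767% in VE and 45.2% in ExE. The chaperone gene Uxt had 30.1 FPKM from the maternal allele and a listed 0 from the paternal allele in visceral endoderm, against 19.6 and 13.3 in extraembryonic ectoderm (40.4%). The chromatin remodeler gene Atrx had 13.7 and 0.229 FPKM in VE (1.64%), against 36.8 and 21.1 in ExE (36.4%). Tspan6 had 0% in VE and 29.3% in ExE, the kinase gene Pim2 9.82% in VE and 39.0% in ExE, 2210013O21Rik 0.272% in VE and 28.9% in ExE, the glycosyltransferase gene Ogt 15.7% in VE and 41.0% in ExE, the ribosomal gene Rps4x 20.2% in VE and 44.8% in ExE, and the RNA-binding protein gene Rbm3 17.3% in VE and 37.4% in ExE. Atrx and Ogt had lower totals in the epiblast sample than in extraembryonic ectoderm. Uxt, Tspan6, Pim2, 2210013O21Rik, Rps4x and Rbm3 had higher ones there. Pim2 had 426 FPKM in epiblast and 38.8 in ExE, and Tspan6 47.9 in epiblast and 7.48 in ExE. The part of epiblast RNA in these shares was not tested. Of 29 compared X-linked housekeeping genes, 28 had a lower share in visceral endoderm, against 197 of 228 of all X-linked genes. The list median was 1.38% in VE and 6.77% in ExE, and Idh3g had 1.36% in VE and 20.7% in ExE.

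Fewer genes kept or exceeded the share. The deacetylase gene Hdac6 had 24.5 FPKM from the maternal and 7.38 from the paternal allele in visceral endoderm (23.1%), against 39.4 and 3.55 in extraembryonic ectoderm (8.25%). Gata1 had 13.3% in VE and 0.875% in ExE, at totals of 5.16 FPKM in VE and 10.9 in ExE, and Ebp 14.8% in VE and 8.63% in ExE. Of 10 compared genes listed as escape genes, known to be expressed from the inactive X, 9 had a lower share in visceral endoderm and Hdac6 a higher one. Among all X-linked genes 197 of 228 were lower, so this count does not set the list apart. The list median was 15.6% in VE and 23.5% in ExE. Usp9x and Pbdc1 of the list had only 1.56% and 1.40% in VE, with 8.00% and 9.43% in ExE. Taf1 had 13.6% in VE and 50.9% in ExE, Kdm5c 16.9% in VE and 31.5% in ExE, and Eif2s3x 35.4% in VE and 40.6% in ExE. Apart from Xist, the highest share in both tissues was that of Gm5643, at 60.5% in VE and 73.1% in ExE.

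Xist, whose RNA spreads along the X chromosome that is silenced, was higher in visceral endoderm, with 1.78 FPKM from the maternal and 25.5 from the paternal allele, against 0.913 and 8.06 in extraembryonic ectoderm (1.505). Its antisense gene Tsix was within 2-fold on the deposited scale, with 36.6 FPKM in VE and 24.7 in ExE (0.55), and passed it after centring (1.01). Smart-seq2 keeps no strand, so reads in the overlap of both genes cannot be told apart. Rlim, which encodes an activator of Xist, was lower, at 22.7 FPKM in VE and 49.3 in ExE (-1.08, within 2-fold after centring).

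**Figure D5:**
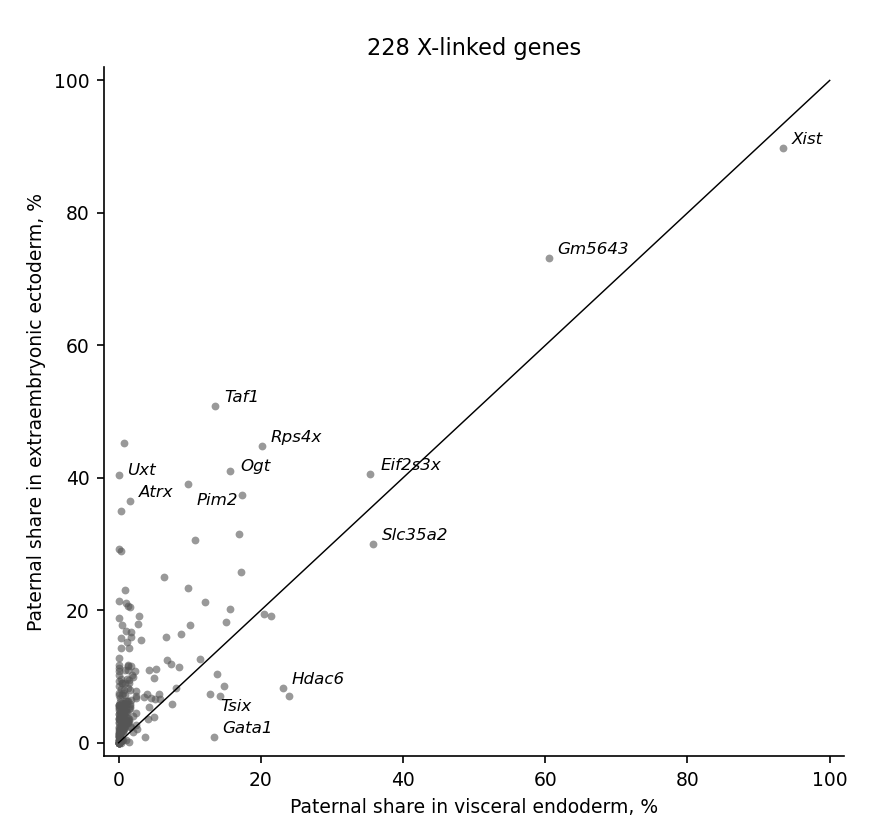
Paternal share (percent) of 228 X-linked genes in visceral endoderm (horizontal) and extraembryonic ectoderm (vertical), with a line of equal shares; each point is a gene. Most points lie above the line near the left edge (197 lower in visceral endoderm), and Hdac6 and Gata1 are among the 24 below it.

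Several of the autosomal genes with the largest share differences had an allele listed at 0. Rbm4 was wholly maternal in visceral endoderm and wholly paternal in extraembryonic ectoderm, Atp5l had 0% in VE and 96.9% in ExE, Rps7 100% in VE and 5.66% in ExE, and H3f3a 100% in VE and 22.1% in ExE. Such exchanges between alleles are not read as imprinting. Among genes with both alleles above 0 in both tissues, the antioxidant gene Gpx3 had 18.02% in VE and 64.8% in ExE, the p53 target gene Perp 74.3% in VE and 18.9% in ExE, the unfolded protein response gene Xbp1 72.2% in VE and 25% in ExE, and the nuclear export gene Xpo1 30% in VE and 65.4% in ExE. They were picked as the largest differences, and the number of reads behind each share is unknown. For that reason they are not read as allelic switches either.

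Most imprinted genes were expressed mainly from 1 allele in both tissues, with Asb4, Copg2, Gnas, Ube3a, Nap1l4 and Inpp5f as the exceptions, and many differed in level. Of 16 maternally expressed ones, 8 were higher in visceral endoderm and 2 lower. Those lower were Phlda2 (6.55 FPKM in visceral endoderm and 383 in extraembryonic ectoderm), which limits placental growth, and Ascl2 (1.21 in VE and 30.6 in ExE), a factor of the ectoplacental lineage. The noncoding RNA genes H19 (529 FPKM in VE and 213 in ExE) and Meg3 (33.5 in VE and 6.47 in ExE) and the growth inhibitor gene Grb10 (67.2 in VE and 19.5 in ExE) were among the higher. Of 7 paternally expressed ones, 5 were higher and 0 lower, led in abundance by Mest (387 FPKM in VE and 117 in ExE). Igf2, the growth factor gene, was level in total (33.9 FPKM in VE and 26.0 in ExE). Its paternal share was 99.2% in visceral endoderm, against 81.7% in extraembryonic ectoderm, where the maternal allele had 4.77 FPKM.

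Genes imprinted through maternal H3K27me3, an imprint kept in extraembryonic tissue, were compared in 6 cases, of which 2 were higher (3 after centring) and 2 lower. The higher ones were Xist and Otx2, and Otx2 came from both alleles, with a paternal share of 54.5% in VE and 53.2% in ExE. Bbx was within 2-fold (0.90) and higher after centring, with a paternal share of 55.2% in VE and 55.8% in ExE. Slc38a4, an amino acid transporter gene, had 2.67 FPKM in visceral endoderm and 52.3 in extraembryonic ectoderm, paternal to 100% in VE and 96.5% in ExE. Sfmbt2 had 9.16 FPKM in VE and 29.1 in ExE, paternal to 97.2% in VE and 99.5% in ExE. Gab1, a signalling adaptor gene, had 6.48 FPKM from the maternal and 17.1 from the paternal allele in visceral endoderm (72.5%), against 0.958 and 35.7 in extraembryonic ectoderm (97.4%). Both alleles of Gab1 contributed in visceral endoderm, and the paternal allele made nearly all of it in extraembryonic ectoderm.

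Columns that the comparison did not use describe the 2 groups further. In the blastocyst, 202 of the 657 genes higher in visceral endoderm (30.7%) were under 1 FPKM in both the E3.5 inner cell mass and the trophectoderm column, against 63 of the 1609 lower genes (3.92%) and 5.07% of all compared genes. In the epiblast, 230 higher (35.01%) and 115 lower genes (7.15%) were under 1 FPKM, against 7.08% of all. Genes higher in visceral endoderm were thus more often outside both blastocyst columns, and lower ones were near the share of all genes.

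Among genes that also met the level rule at E3.5, 5417 in all, 10.6% were at least 2-fold higher in inner cell mass than in trophectoderm and 8.66% lower. Of 278 genes higher in visceral endoderm, 60 (21.6%) were higher in inner cell mass and 77 (27.7%) lower. Of 1400 genes lower in visceral endoderm, 224 (16%) were higher in inner cell mass and 131 (9.36%) lower. Genes lower in visceral endoderm were thus more often on the inner cell mass side than on the trophectoderm side. Dab2 had 68.4 FPKM in inner cell mass and 209 in trophectoderm, and Apoa1 7.90 in inner cell mass and 73.5 in trophectoderm. Fabp3 had 908 FPKM in inner cell mass and 4839 in trophectoderm, and Utf1 171 in inner cell mass and 13.1 in trophectoderm. In the single E9.5 yolk sac sample, which was sparse, 275 genes higher in visceral endoderm reached 5 FPKM (41.9%), against 430 lower genes (26.7%) and 37.5% of all. Afp had 3745 FPKM and Ttr 1319 FPKM there.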

How the data were processed

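Smart-seq2 libraries of 3 visceral endoderm and 2 extraembryonic ectoderm samples were used. The values deposited by the authors were FPKM per gene and allele, with the samples of a tissue pooled into 1 column per allele. Per the submitters' processing notes, Trim Galore 0.6.4, HISAT2 2.2.0 and StringTie 2.1.1 were used with the build mm9. How reads were assigned to alleles is not given in the sources used here. Alleles were summed to totals, and 5 summary lines were left out. Log2 ratios were taken on FPKM plus 1. Paternal shares needed at least 1 FPKM in both tissues. Chromosomes and names came from RefSeq (GRCm38.p6; 23951 genes matched), which is not the build of the files, so no coordinates of genes were taken for the FPKM values and promoter windows were matched by symbol. No counts were given, so depth and its error are unknown, and pooled columns allow no test.

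Genes were named by rule: the 12 highest and 12 lowest ratios, examples from each gene list by level or ratio, the 10 highest X-linked shares and the 8 largest share differences in each direction, genes at the limits, and the most abundant genes. A few genes that this rule names are not reported here. The X-linked genes with the 8 highest and lowest ratios and the genes of the trace described across tissues were chosen after their values were seen. The compared genes and the lists were chosen with earlier results of these data known. Alternatives were other pseudocounts and minimums, centring, rescaling and single alleles. Only the fold rule was run on simulated totals, with planted changes larger than its limit and little noise. That run held no low genes and did not cover listed zeros, scaling or paternal shares. Software was Python 3.11.15 with numpy 2.4.6, pandas 2.3.3, scipy 1.17.1 and matplotlib 3.10.9.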

Additional observations from a re-analysis of the deposited data

How the results depend on the processing

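No paired analysis was possible because the columns pool the samples of a tissue and carry no replicate number; for the same reason no sample could be left out. The count of genes higher in visceral endoderm was 391 with a pseudocount of 5 FPKM, 254 with a minimum of 20 FPKM, 1110 after centring on the median and 1226 after rescaling without the 50 most abundant genes, against 657; the count of lower genes was 995, 959, 675 and 570, against 1609. The median log2 ratio of all compared genes was -0.49 and -0.36 with pseudocounts of 0.1 and 5 FPKM, -0.082 with no minimum, -0.63 with a minimum of 20 FPKM, 0 by construction after centring, -0.43 on the maternal allele alone and 0.092, with the sign turned, after rescaling. The X-linked paternal share had a median of 0.798% in visceral endoderm and 5.46% in extraembryonic ectoderm over genes at 1 FPKM in that tissue; from summed FPKM the 2 shares were 4.04% for visceral endoderm, against 12.1% for extraembryonic ectoderm, a difference of -8.06 points.

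Among 337 genes named or listed, 229 were past 2-fold. In 7 of these the sign turned, each on 1 allele alone: Lamp2 (-0.17), Usp9x (-0.27), Ubqln2 (-0.45), Mum1l1 (-0.0945) and Pou5f1 (0.043) on the paternal allele, and Peg10 (-0.0075) and Sfmbt2 (0.12) on the maternal allele. In each of them that allele gave little of the total. Of the 229, 23 were no longer past it after centring, 31 after rescaling, 22 with a pseudocount of 5 FPKM and 0 with one of 0.1 FPKM.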
